A study of Homo sapiens with 13 samples.

Results

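CAPN6, CKB, TESC and PALLD were the 4 genes with the smallest p for a higher level with romidepsin than with the vehicle DMSO, out of 45744 genes counted by RNA sequencing in HuT78 cells. HuT78 is an established cell line derived from Sézary syndrome, a leukemic form of cutaneous T cell lymphoma. Each library came from cells exposed for 72 h to 1 of 4 conditions: chaetocin at 10 nM (replicates 1 to 4), F5446 at 10 nM (replicates 2 to 4), romidepsin at 1 µM (replicates 1 to 4) or DMSO (replicates 1 and 4), which makes 13 libraries of 1 cell line with no genetic alteration named in the labels. Romidepsin inhibits histone deacetylases and is a drug for this lymphoma, while chaetocin, from a fungus, and the code-named F5446 inhibit SUV39H1, a methyltransferase that places a repressive mark of heterochromatin on histone H3. Nothing in the labels says that replicates were separate cultures. The p-values then set a difference only against the spread among these samples, which may be technical.

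Because the 4 genes were chosen on romidepsin against DMSO, their values in that comparison are given as a description without a test. The same holds for every comparison that uses the romidepsin or the DMSO libraries. In the edgeR fit over 17252 genes the order by p was CKB, CAPN6, TESC and PALLD. The last gene inside the rule, PALLD, had an unadjusted edgeR p of 0.000477, and the first gene outside it, HLA-DRB1, a class II antigen-presenting chain with near-identical relatives, had 0.000592. None of the 4 was called at an adjusted p under 0.05, where 0% of all genes were called (0 of 17252, with 487 at an unadjusted p under 0.05, 1 called by DESeq2 and 0 by limma-voom). The mean difference of chaetocin from F5446 used neither set of libraries and was tested. Its spread was estimated with all 13 libraries, and a choice by small p favors genes with little spread.

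The 4 genes belong to different protein families. CAPN6 (ENSG00000077274) encodes a calpain-family protein that lacks the active-site cysteine of the calcium-dependent proteases and binds microtubules, and it is best known from placenta and embryonic muscle. CKB (ENSG00000166165) encodes the brain-type cytosolic creatine kinase, which buffers ATP through phosphocreatine. TESC (ENSG00000088992) encodes tescalcin, a small EF-hand calcium-binding protein related to calcineurin B. PALLD (ENSG00000129116) encodes palladin, an immunoglobulin-domain scaffold that bundles actin filaments in stress fibers and focal adhesions. Histone deacetylase inhibitors raise histone acetylation, and at some responsive promoters, such as that of CDKN1A, GC boxes bind Sp-family factors.

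Promoter sequences are shown for 3 starts to let the base composition and motifs of genes chosen for the same pattern be compared. Of the 3 annotated starts of PALLD the one with the most motif matches is printed. RefSeq promoters (GRCh38.p14) matched 3 of the 4 genes, CAPN6, CKB and PALLD, and not TESC. Each line gives the 250 bases before the annotated start on the gene's strand, 5′ to 3′, with motif matches in capitals. The motifs searched on both strands were the GC box (GGGCGG), the CCAAT box (CCAAT), the TATA box (TATAAA), the AP-1 motif (TGANTCA), the cAMP response element (TGACGTCA) and the E-box (CACGTG).
CAPN6, chrX:111270484-111270733, minus strand: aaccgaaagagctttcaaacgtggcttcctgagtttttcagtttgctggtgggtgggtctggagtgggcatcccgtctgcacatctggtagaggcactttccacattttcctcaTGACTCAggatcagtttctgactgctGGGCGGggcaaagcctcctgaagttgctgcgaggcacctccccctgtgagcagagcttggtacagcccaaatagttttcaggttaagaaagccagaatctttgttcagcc
CKB, chr14:103522831-103523080, minus strand: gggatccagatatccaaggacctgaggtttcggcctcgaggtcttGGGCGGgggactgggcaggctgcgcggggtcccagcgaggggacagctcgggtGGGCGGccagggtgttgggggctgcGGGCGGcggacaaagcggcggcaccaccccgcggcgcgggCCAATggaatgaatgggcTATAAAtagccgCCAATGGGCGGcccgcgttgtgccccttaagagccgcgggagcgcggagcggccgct
PALLD start 3, chr4:168831845-168832094, plus strand: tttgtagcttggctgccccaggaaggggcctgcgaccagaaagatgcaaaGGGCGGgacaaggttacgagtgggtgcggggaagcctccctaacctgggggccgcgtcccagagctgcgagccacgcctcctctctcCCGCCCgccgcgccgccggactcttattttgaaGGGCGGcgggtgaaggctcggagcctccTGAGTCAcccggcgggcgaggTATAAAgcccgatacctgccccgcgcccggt

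The CAPN6 window held 1 GC box and 1 AP-1 match, with 5 CpG dinucleotides and 52% G and C. The CKB window held 4 GC boxes, 2 CCAAT boxes and 1 TATA box 69 bases before the start, with 27 CpG dinucleotides and 70.8% G and C. The third annotated start of PALLD had 3 GC boxes, 1 AP-1 match and 1 TATA box 31 bases before the start, with 24 CpG dinucleotides and 67.6% G and C. Over 35116 RefSeq promoter windows of the same length, the medians were 11 CpG dinucleotides and 58% G and C. A GC box was present in 42.6% of them, a CCAAT box in 32%, a TATA box in 10.7% and an AP-1 match in 6.57%. The cAMP response element and the E-box, present in 1.65% and 6.34% of windows, had no match in the windows of these genes. PALLD has 2 further annotated starts, at chr4:168496802-168497051 with no match to any of the 6 motifs, 4 CpG dinucleotides and 46% G and C, and at chr4:168631328-168631577 with 1 GC box, 9 CpG dinucleotides and 54.4% G and C. Counts per gene do not show which PALLD start was used.

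The libraries held 19901052 to 30816188 counts. Chaetocin replicate 3 stood apart in composition, with a TMM normalization factor of 0.859 where the other 12 libraries lay between 0.989 and 1.04. Of 11 T cell markers, 10 had a mean of at least 1 CPM, the count scaled to 1 TMM-normalized library size common to all libraries, among them CD3E at 220 and CD4 at 215 CPM, while CD28 was near 0 at 0.145 CPM, and the T cell sum was 1280 to 1660 CPM with romidepsin and 1280 to 1450 with DMSO. Markers of other lineages summed to 370 to 529 CPM with romidepsin and 506 to 640 with DMSO for muscle (7 genes, nearly all ACTA2), and to 32.5 to 54.3 against 31.2 to 44.3 for fibroblasts (7 genes). The epithelial sum (7 genes) was 125 to 168 CPM with romidepsin and 107 to 139 with DMSO, and that of placental trophoblast (6 genes, nearly all KRT7) was 65.9 to 79.1 against 51.1 to 108. Of the 7 epithelial genes 5 averaged 1 CPM or more, among them KRT8 at 62.8, KRT18 at 25, EPCAM at 20.3 and CDH1 at 15.2 CPM, as did 3 of the 7 fibroblast genes, among them COL1A1 at 20.6 and PDGFRB at 17.6 CPM. KRT19, MYOG, ERVW-1, PF4 and GP9 had 0 counts in each of the 13 libraries. B cell markers (5 genes) summed to 55.6 to 87 CPM with romidepsin and 48.8 to 61.9 with DMSO, with averages of 46.7 CPM for CD79A, 15.4 for MS4A1, 5.15 for CD79B and under 0.1 for PAX5, and myeloid markers (5 genes) to 1.91 to 4.55 and 1.55 to 2.11. Their part in the results was not tested. In bulk RNA, more cells that express a gene and more RNA per cell cannot be told apart.

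CAPN6 had about 2 times the vehicle level with romidepsin, and its level with both methyltransferase inhibitors overlapped that of the vehicle. It was at 70.5, 81.5, 77.5 and 94.4 CPM in romidepsin replicates 1 to 4 and at 42.3 and 38.6 CPM in DMSO replicates 1 and 4. It was at 46.6, 41.8 and 41.1 CPM in F5446 replicates 2, 3 and 4, and at 21.5, 35.1, 46.5 and 33.4 CPM in chaetocin replicates 1 to 4. Every romidepsin library lay above every other library, and chaetocin, F5446 and DMSO overlapped. The choice of the genes favors a separation of romidepsin or DMSO libraries, here and for the genes below. The share of all genes that show one was not counted. In order of their means, chaetocin was at 34.1 ± 10.2 CPM (SD, n = 4), DMSO at 40.5 ± 2.59 (SD, n = 2), F5446 at 43.2 ± 3.02 (SD, n = 3) and romidepsin at 81.0 ± 10.1 (SD, n = 4). The first 3 means differed by less than the SD within chaetocin. The log2 fold change of romidepsin over DMSO was 1.00 (SE 0.22). The lowest of the 13 libraries was chaetocin replicate 1.

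The mean level of CKB was lowest with DMSO and highest with romidepsin, the conditions that chose the gene, with F5446 and chaetocin between. It was at 63.3, 74.7, 76.1 and 81.1 CPM in romidepsin replicates 1 to 4 and at 36.4 and 29.5 CPM in DMSO replicates 1 and 4. It was at 49.0, 47.4, 72.5 and 55.9 CPM in chaetocin replicates 1 to 4, and at 40.9, 52.1 and 31.3 CPM in F5446 replicates 2, 3 and 4. Chaetocin and romidepsin overlapped only through chaetocin replicate 3. F5446 overlapped both DMSO and chaetocin, and chaetocin and DMSO did not overlap. The means were 32.96 ± 4.87 CPM with DMSO (SD, n = 2), 41.4 ± 10.4 with F5446 (SD, n = 3), 56.2 ± 11.5 with chaetocin (SD, n = 4) and 73.8 ± 7.55 with romidepsin (SD, n = 4). Romidepsin over DMSO came to a log2 fold change of 1.16 (SE 0.21), a fold of 2.24.

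TESC had the fewest counts of the 4, 113 to 635 counts per library. Its level was 15.4, 13.05, 20.6 and 17.8 CPM in romidepsin replicates 1 to 4 and 8.14 and 5.46 CPM in DMSO replicates 1 and 4. In F5446 replicates 2, 3 and 4 it was 10.0, 16.0 and 13.02 CPM, and in chaetocin replicates 1 to 4 it was 13.9, 11.1, 7.53 and 11.2 CPM. Each condition overlapped its neighbour in the order DMSO, chaetocin, F5446 and romidepsin, while romidepsin and DMSO did not overlap, nor did F5446 and DMSO. The means were 6.80 ± 1.90 CPM with DMSO (SD, n = 2), 10.9 ± 2.62 with chaetocin (SD, n = 4), 13.01 ± 3.01 with F5446 (SD, n = 3) and 16.7 ± 3.22 with romidepsin (SD, n = 4). TESC had the highest log2 fold change of the 4 for romidepsin over DMSO, 1.30 (SE 0.29), a fold of 2.46, and also the highest SE. The antisense gene TESC-AS1, looked at after its values were seen, had 4 and 9 counts in romidepsin replicates 1 and 4 and 0 in the other 11 libraries. The GENCODE annotation used for exon lengths listed no other gene overlapping TESC on either strand, but it is another release than that of the counts. The count files state no strand setting. If an antisense transcript did overlap TESC, its reads there could not be told apart from those of TESC.

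PALLD had the most counts of the 4, 7204 to 16735 counts per library. It was at 610, 586, 542 and 603 CPM in romidepsin replicates 1 to 4 and at 440 and 348 CPM in DMSO replicates 1 and 4. In F5446 replicates 2, 3 and 4 it was at 425, 452 and 435 CPM, and in chaetocin replicates 1 to 4 at 473, 447, 388 and 424 CPM. As for CAPN6, every romidepsin library lay above every other library, and the other 3 conditions overlapped. The means were 393.8 ± 64.8 CPM with DMSO (SD, n = 2), 433.0 ± 35.9 with chaetocin (SD, n = 4), 437.4 ± 13.5 with F5446 (SD, n = 3) and 585.5 ± 30.4 with romidepsin (SD, n = 4). The log2 fold change of romidepsin over DMSO was the lowest of the 4, at 0.57 (SE 0.14), a fold of 1.49. HLA-DRB1, just outside the rule, was at 43.0 ± 7.33 CPM in DMSO libraries and 71.0 ± 7.81 in romidepsin libraries (SD, n = 2 and 4), with a log2 fold change of 0.72. Within the PALLD locus, GENCODE release 29 places CBR4 and DDX60L on the opposite strand, with up to 2227 and 917 counts per library, and whether their exons overlap those of PALLD was not tested.

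**Figure D1:**
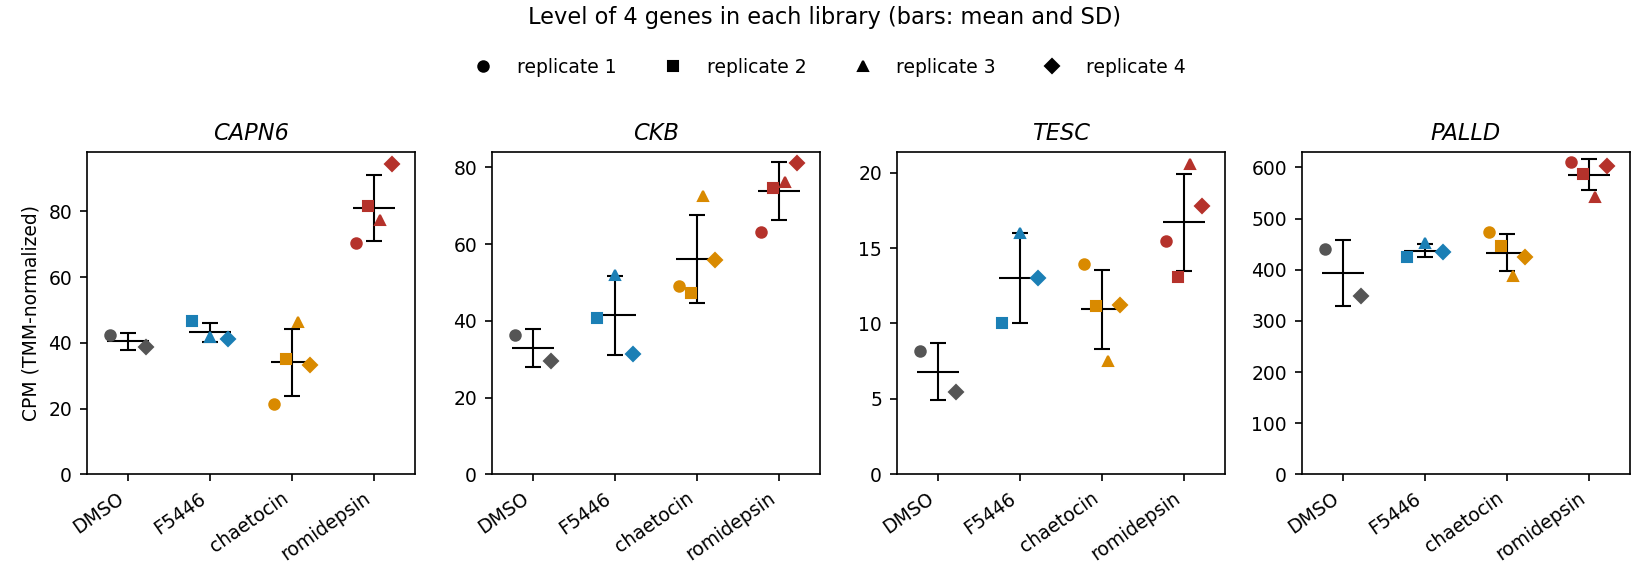
Level of each gene in CPM (y axes, linear, each from 0) in the libraries of each treatment (x axes). Symbols are single libraries by replicate number, and bars are the mean and SD. CAPN6 and PALLD with romidepsin lie above all other libraries, while CKB and TESC overlap between romidepsin and another treatment. The genes were chosen on romidepsin against DMSO, which favors such a separation.

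Per kilobase of merged exon (GENCODE release 29, with 3568, 2669, 1926 and 10114 bases for CAPN6, CKB, TESC and PALLD) the order of levels was PALLD, CKB, CAPN6, TESC in all 4 conditions. With DMSO the values were 38.9, 12.3, 11.3 and 3.53 CPM per kilobase in that order, and with romidepsin 57.9, 27.7, 22.7 and 8.68. CKB and CAPN6 were close with DMSO, and with chaetocin CKB was at 21.0 and CAPN6 at 9.56 CPM per kilobase. These lengths come from another annotation release than the counts and merge all transcripts of a gene, so they are approximate. The biological coefficient of variation between libraries, which edgeR estimates beyond counting error, was 17.7% for CAPN6, 17.1% for CKB, 22.8% for TESC and 12.6% for PALLD. The trend over all tested genes at the level of each was 16.6%, 16.4%, 23.2% and 15.2%, so CAPN6 and CKB lay above it and TESC and PALLD below. Counting error alone was at most 9.41% of the count, in the library with the fewest TESC counts, and at most 4.50%, 4.05% and 1.18% for CAPN6, CKB and PALLD.

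The other comparisons with DMSO share its 2 libraries with the comparison that chose the genes, so their values stand side by side without a test. For chaetocin over DMSO the log2 fold changes were -0.25 for CAPN6 (SE 0.21), 0.77 for CKB (SE 0.21), 0.69 for TESC (SE 0.29) and 0.14 for PALLD (SE 0.14). For F5446 over DMSO they were 0.094 for CAPN6 (SE 0.22), 0.33 for CKB (SE 0.21), 0.93 for TESC (SE 0.30) and 0.15 for PALLD (SE 0.14). CKB, TESC and PALLD thus had higher means than DMSO with each of the 3 compounds, while CAPN6 had a lower mean with chaetocin. DMSO replicate 4 was below replicate 1 for each of the 4 genes. Without DMSO replicate 4 the values for PALLD were -0.021 with chaetocin and -0.0057 with F5446, and without DMSO replicate 1 they were 0.32 with each. For TESC with chaetocin the value was 0.43 without DMSO replicate 4 and 1.01 without DMSO replicate 1. CAPN6 with chaetocin was at -0.43 without chaetocin replicate 3 and -0.080 without chaetocin replicate 1, and with F5446 at 0.032 without DMSO replicate 4 and 0.15 without DMSO replicate 1. CKB with F5446 was at 0.13 without F5446 replicate 3 and 0.495 without F5446 replicate 4. With replicate number as a block, CAPN6 was at -0.43 with chaetocin and -0.15 with F5446, CKB at 0.15 with F5446 and PALLD at 0.25 with F5446.

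Romidepsin was given at 1 µM and the other compounds at 10 nM, so its values beside theirs are not at matched doses. Over chaetocin, romidepsin was higher by a log2 difference of 1.25 for CAPN6 (SE 0.17), 0.39 for CKB (SE 0.16), 0.61 for TESC (SE 0.22) and 0.44 for PALLD (SE 0.11). Over F5446 the log2 differences were 0.91 for CAPN6 (SE 0.19), 0.83 for CKB (SE 0.18), 0.36 for TESC (SE 0.24) and 0.42 for PALLD (SE 0.12). The romidepsin mean was thus above that of both other compounds for each gene. Against chaetocin CAPN6 had the highest of the 4 differences, and against F5446 TESC had the lowest. CAPN6 was 1 of the 16 genes that edgeR called over chaetocin, 0.0927% of all genes (0.0754% higher and 0.0174% lower), and the other 3 were not. The romidepsin libraries entered the choice of the genes, so nothing is read from that call.

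**Figure D2:**
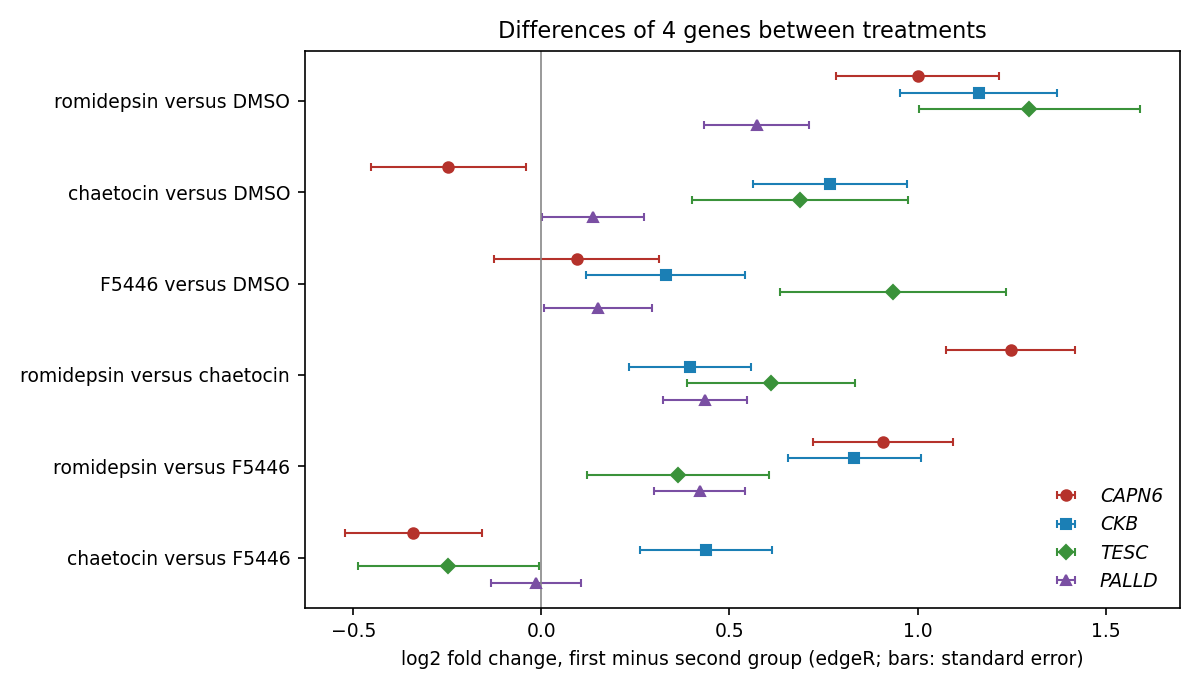
Log2 fold change of each gene (x axis, points with standard error from edgeR) in the 6 comparisons between treatments (rows), first minus second group. All 4 genes are above 0 with romidepsin against DMSO, where they were chosen, and in the tested comparison of chaetocin with F5446 they lie between -0.34 and 0.44.

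Chaetocin and F5446, both given at 10 nM for 72 h, could be tested on a mean difference that the choice of the genes did not use. The standard errors rest on all 13 libraries, so the intervals may be too narrow for genes chosen by small p. None of the 4 passed the test. For CKB the chaetocin mean was 0.44 above that of F5446 on the log2 scale (95% CI 0.07 to 0.80, edgeR adjusted p = 0.999, unadjusted p = 0.0212), and each chaetocin library lay above F5446 replicates 2 and 4, while chaetocin replicates 1 and 2 lay below F5446 replicate 3. Relative to F5446, the chaetocin mean of CAPN6 differed by -0.34 (95% CI -0.72 to 0.04, edgeR adjusted p = 0.999) and that of TESC by -0.25 (95% CI -0.75 to 0.25, edgeR adjusted p = 0.999). PALLD differed by -0.015 (95% CI -0.26 to 0.23, edgeR adjusted p = 0.999), so the interval holds differences from 0.26 lower to 0.23 higher with chaetocin. Of the 4 genes 0 were called, against 0% of all genes (0 of 17252, with 587 at an unadjusted p under 0.05, 2 called by DESeq2 and 0 by limma-voom). With replicate number as a block edgeR called 11 genes, 0 of these 4 among them, and CKB was at 0.48 (adjusted p = 0.44). Over all alternatives the adjusted p of CKB ran from 0.44 to 1. Between the same libraries the muscle marker sum did not overlap, at 695 to 870 CPM with chaetocin and 525 to 584 with F5446. That sum is nearly all ACTA2 (mean 582 CPM), and the next muscle marker, MYH11, averaged 0.71 CPM. The share of all genes without overlap between these libraries was not counted. The T cell sums (1100 to 1600 and 1410 to 1590), the B cell sums (40.7 to 93 and 55.3 to 83.9) and the fibroblast sums (36.2 to 49.6 and 29.3 to 46) overlapped. The epithelial sums were 104 to 119 and 118 to 122 CPM, the trophoblast sums 51.2 to 72.2 and 65.2 to 87.1, and the myeloid sums 1.74 to 4.76 and 2.33 to 3.17. Their part in this comparison was not tested.

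These differences moved with single libraries. Without chaetocin replicate 3 the log2 differences were -0.52 for CAPN6, 0.30 for CKB, -0.097 for TESC and 0.043 for PALLD, and without chaetocin replicate 1 CAPN6 was at -0.17. Without F5446 replicate 3 CKB was at 0.64, TESC at -0.069 and PALLD at 0.010, without F5446 replicate 4 CKB was at 0.27, and without F5446 replicate 2 TESC was at -0.41. Without chaetocin replicate 1 TESC was at -0.38. For TESC the mean log2 difference was 0.31 in replicate numbers 1 and 2 (2 chaetocin libraries, 1 F5446 library) and -0.65 in 3 and 4 (2 of each), opposite in sign. For CKB it was 0.24 and 0.65, for CAPN6 -0.76 and -0.073, and for PALLD 0.11 and -0.13.

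The values by replicate number are a description too, since they use all 13 libraries and a choice by small p favors genes with little spread within treatments. With treatment in the model, libraries numbered 3 or 4 differed from those numbered 1 or 2 in 15.8% of all genes (2719 of 17252, 1392 higher and 1327 lower, edgeR). Of the 4 genes 0 were called, and nothing is read from that count. CAPN6 and CKB each had a log2 difference of 0.15 (SE 0.12 and 0.11), TESC of 0.036 (SE 0.17) and PALLD of -0.12 (SE 0.074). The labels do not say what the numbers stand for.

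Romidepsin over DMSO, given as a description, was positive for each gene in both sets of numbers, each with a single DMSO library. The choice of the genes on these libraries favors that sign in both sets, so nothing is read from it. In numbers 1 and 2 the mean log2 differences were 0.84 for CAPN6, 0.92 for CKB, 0.80 for TESC and 0.44 for PALLD. In numbers 3 and 4 they were 1.14, 1.41, 1.79 and 0.72. For TESC replicate 3 was the lowest library within chaetocin and the highest within romidepsin and F5446.

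**Figure D3:**
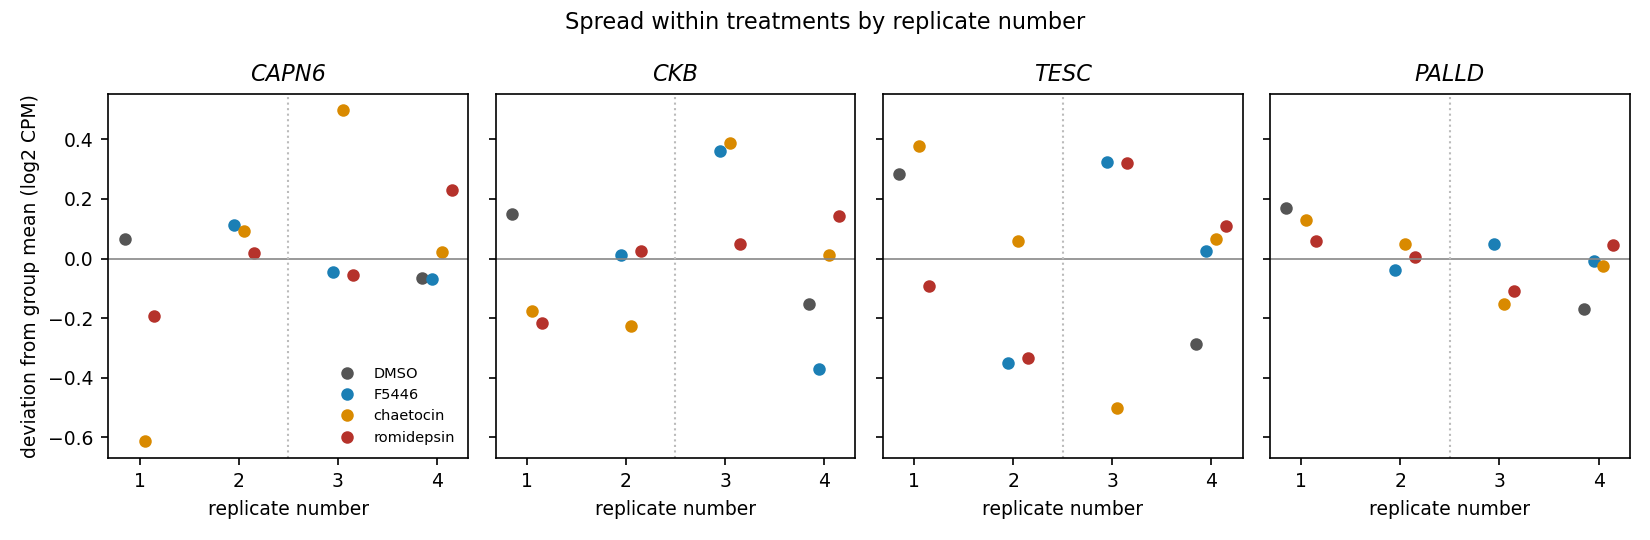
Deviation of each library from its treatment mean in log2 CPM (y axis) by replicate number (x axis), for each gene; colors are treatments and the dotted line parts numbers 1 and 2 from 3 and 4. Chaetocin replicate 3 is high for CAPN6 and CKB and low for TESC and PALLD.

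Within treatments, the relations among the 4 genes had mixed signs. Over the deviations of the 13 libraries from their treatment means, TESC and PALLD had a Pearson r of 0.61 (permutation p = 0.0909, Benjamini-Hochberg adjusted p = 0.241 over 6 pairs) and a Spearman rho of 0.538 (permutation p = 0.106, adjusted 0.319). CAPN6 and CKB had an r of 0.563 (permutation p = 0.0832, adjusted p = 0.241) and a rho of 0.544 (permutation p = 0.0985, adjusted 0.319). CAPN6 and TESC went in opposite directions, with an r of -0.539 (permutation p = 0.121, adjusted p = 0.241) and a rho of -0.357 (permutation p = 0.306, adjusted 0.612). CAPN6 and PALLD had an r of -0.435 (permutation p = 0.209, adjusted 0.314) and a rho of -0.22 (permutation p = 0.521, adjusted 0.781). For CKB with TESC r was -0.0518 and rho 0.0989 (permutation p = 0.878 and 0.788, adjusted 0.878 and 0.788), and for CKB with PALLD r was -0.13 and rho -0.143 (permutation p = 0.682 and 0.68, adjusted 0.819 and 0.788). No pair passed the threshold of 0.05. The deviations include the romidepsin and DMSO libraries, and a choice by small p favors genes with little spread within treatments. The correlations are therefore a description, and nothing is read from these p-values.

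Leaving out the 2 libraries farthest from the median of the first gene changed these values. The r of CAPN6 with CKB was then 0.359, with TESC 0.0205 and with PALLD 0.24, in each case without chaetocin replicates 1 and 3, so the negative relations of CAPN6 rested on those libraries. TESC with PALLD kept an r of 0.47 without F5446 replicate 2 and chaetocin replicate 3. CKB with TESC was at 0.33 and with PALLD at 0.12 without F5446 replicate 4 and chaetocin replicate 3.

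Over the 13 libraries, treatment differences included, the genes whose log2 CPM was most like each member were named among 10092 genes averaging 5 CPM or more, as a description. For CAPN6 they were GPRIN3 (r = 0.966), PRKCB (r = 0.906) and GSTK1 (r = 0.862). For CKB they were APOBEC3C (r = 0.925), FHL1 (r = 0.862) and DCLRE1A (r = 0.852). TESC was most like FIG4 (r = 0.899), GTDC1 (r = 0.882) and HLA-DRB1 (r = 0.86), and PALLD most like ANKRD55 (r = 0.864), MCTP1 (r = 0.852) and TBC1D9 (r = 0.849). None of the 4 lists of 3 shared a gene. All of these genes had a higher fitted level with romidepsin than with DMSO, between 0.33 and 1.56 on the log2 scale, a direction that ranking by likeness to the 4 genes favors. On deviations from treatment means the nearest genes were others: RAD54L for CAPN6 (r = 0.925), SLC12A5 for CKB (r = 0.923), OSGIN2 for TESC (r = 0.938) and MAP7 for PALLD (r = 0.95).

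Relatives and partners of the 4 proteins were described from lists of named genes, beside each member. Of 10 tested calpain-family genes other than CAPN6, 0 were called with romidepsin against DMSO in either direction, 7 were above 0 and 3 below, and the median log2 fold change was 0.049 against 0.0054 over all tested genes. CAPNS1, the common small subunit of the classical calpains, was at 161.4 ± 21.9 CPM in romidepsin libraries and 154.9 ± 2.96 in DMSO libraries (SD, n = 4 and 2). CAST, the gene of the calpain inhibitor calpastatin, was at 157.0 ± 13.7 and 134.7 ± 2.56 CPM. CAPN1 and CAPN2, the classical calpain proteases, were at 94.9 ± 8.71 and 80.7 ± 8.14 CPM with romidepsin and 83.0 ± 9.44 and 76.7 ± 0.793 with DMSO. The log2 fold changes of these 4 relatives lay between 0.059 and 0.22.

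Of 9 tested genes of creatine and adenylate phosphotransfer, 0 were called with romidepsin against DMSO, 5 were above 0 and 4 below, and the median was 0.0083. AK3, an adenylate kinase of the mitochondrial matrix, was at 138.2 ± 27.1 CPM in romidepsin libraries and 138.8 ± 22.3 in DMSO libraries (SD, n = 4 and 2). GAMT, which makes creatine, was at 25.7 ± 3.06 and 21.5 ± 4.50 CPM, and AK4 at 5.998 ± 1.71 and 12.2 ± 1.84. The muscle creatine kinase gene CKM had at most 11 counts in any library and CKMT2 had 0 in all 13. The mitochondrial isoforms CKMT1A and CKMT1B, near-identical copies whose counts are uncertain, were at 1.98 ± 0.968 and 1.63 ± 0.741 CPM in romidepsin libraries and 1.23 ± 0.027 and 0.745 ± 0.098 in DMSO libraries (SD, n = 4 and 2). Their log2 fold changes were 0.69 and 1.12, beside 1.16 for CKB, with an edgeR adjusted p of 1 for each isoform.

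Of 11 tested genes of calcineurin-like proteins and their targets, 0 were called with romidepsin against DMSO, 8 were above 0 and 3 below, and the median was 0.099. CABIN1, a calcineurin-binding inhibitor, was at 166.4 ± 7.97 CPM in romidepsin libraries and 188.3 ± 30.4 in DMSO libraries (SD, n = 4 and 2), and RCAN3, a regulator of calcineurin, at 148.0 ± 17.9 and 118.7 ± 13.2. PPP3R1 and PPP3CA, the regulatory and a catalytic subunit of calcineurin, were at 106.2 ± 12.7 and 100 ± 9.75 CPM with romidepsin and 115.8 ± 13.5 and 95.8 ± 27.2 with DMSO.

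Of 13 tested genes of the palladin family and its partners, 0 were called with romidepsin against DMSO, 8 were above 0 and 5 below, and the median was 0.025. The relatives MYPN and MYOT, of muscle, had at most 6 and 3 counts in any library. PFN1, the profilin gene, was at 1887 ± 319.9 CPM in romidepsin libraries and 2071 ± 72.8 in DMSO libraries (SD, n = 4 and 2), and EZR, which links actin to the membrane, at 856.7 ± 101.3 and 781.2 ± 9.58. ACTN4, an actin crosslinker, was at 759.1 ± 130.2 and 721.2 ± 15.7 CPM, and LASP1, an actin-binding adaptor, at 239.5 ± 27.5 and 256.0 ± 34.2. The highest log2 fold change in the 4 lists, in the order given, was 1.17 (CAPN12), 1.12 (CKMT1B), 0.86 (SLC9A3) and 0.30. Thus 3 lists held genes within the range of the 4 genes chosen on this comparison. CAPN12, CKMT1B and SLC9A3 averaged only 0.39, 1.30 and 2.39 CPM, and over all tested genes the SD of this log2 fold change was 1.05.

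With chaetocin against F5446, 0 genes of the 4 lists were called, and the medians were 0.0040 for the calpain family, -0.054 for phosphotransfer, -0.094 for calcineurin-like proteins and -0.090 for palladin partners, against -0.00048 over all tested genes. With chaetocin or F5446 against DMSO and with romidepsin against F5446, 0 list genes were called in a background of 0%. With romidepsin against chaetocin 0 were called in a background of 0.0927% (16 of 17252). Within treatments, libraries numbered 3 or 4 had higher levels than those numbered 1 or 2 for 5 of 13 palladin partners, among them the actin crosslinker ACTN1 (log2 difference 0.36, edgeR adjusted p = 0.00105), EVL (0.39, adjusted p = 0.00134), NCKIPSD (0.49, adjusted p = 0.000139) and ACTN4 (0.31, adjusted p = 0.00753), in a background of 8.07% higher and 7.69% lower. In the same comparison CAPN5 (1.97, edgeR adjusted p = 0.000464), the creatine transporter SLC6A8 (0.89, adjusted p = 0.00307) and PPP3CC (0.54, adjusted p = 0.00819) were also called higher. The other 6 calls of the lists, CAPNS1, AK3 and LASP1 higher and CAPN10, PPP3CA and RCAN1 lower, were each lost in edgeR without single libraries. CAPNS1 was lost without chaetocin replicate 1 or 3, F5446 replicate 3 or romidepsin replicate 1, and AK3 without chaetocin replicate 1 or 4 or romidepsin replicate 1 or 3. PPP3CA was lost without chaetocin replicate 1 or 4 or either DMSO library, RCAN1 without either DMSO library, and LASP1 and CAPN10 without any 1 of 11 and 8 libraries, both DMSO libraries included.

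**Figure D4:**
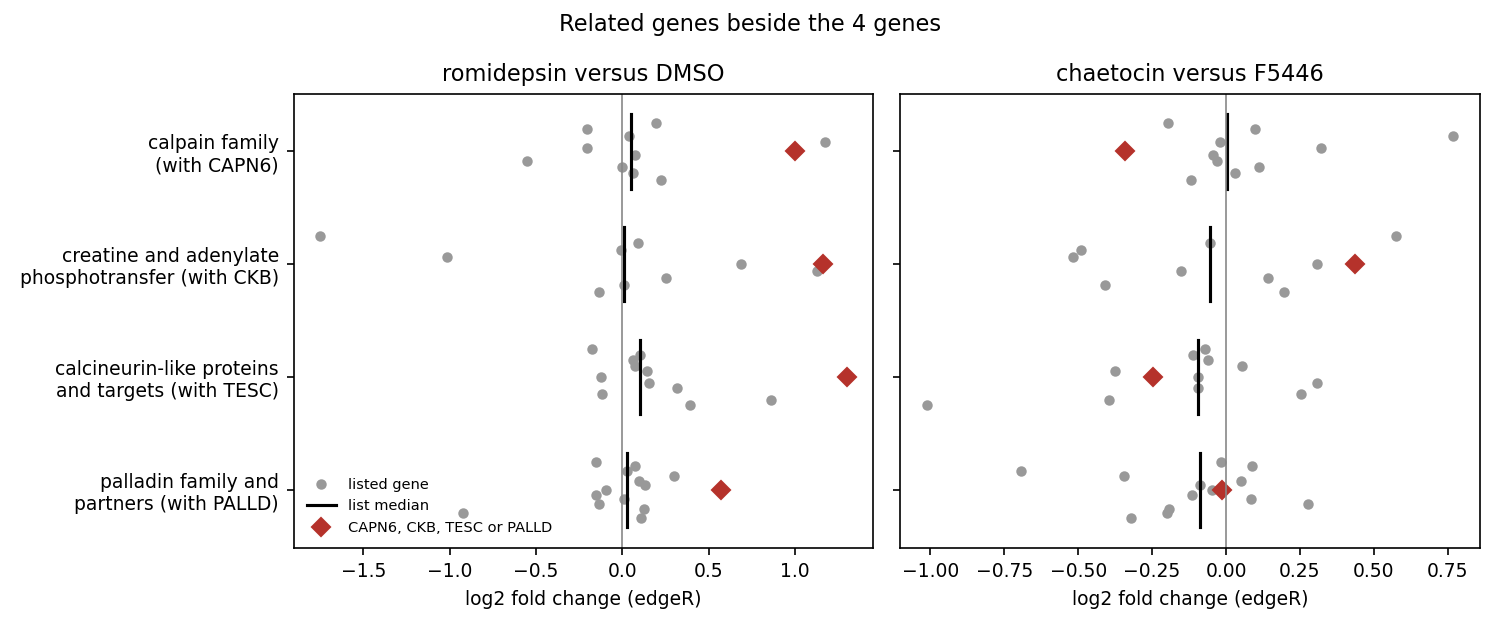
Log2 fold change (x axes, edgeR) of the tested genes of each list (grey points), the list median (black line) and the member it was drawn up around (red diamond), for romidepsin against DMSO (left) and chaetocin against F5446 (right). With romidepsin the list medians lie between 0.0083 and 0.099, and single list genes reach 1.17; the 4 members were chosen on this comparison.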

How the data were processed

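RNA from HuT78 cells was measured in 13 libraries prepared, per the labels' protocols, from DNase-treated total RNA with the Ovation Human FFPE RNA-Seq kit. Per the submitters' processing notes, bcl2fastq 2.20.0.422, cutadapt 1.8.1 and HTSeq 0.6.1 were used with hg19. An aligner, a strand setting and an annotation were not given in the sources used here. The values deposited by the authors are raw counts per gene for 45744 genes. The F5446 libraries were grouped by their titles, since their treatment tags end in different digits.

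Genes passing the edgeR expression filter (17252) were fitted over all 13 libraries with treatment as the only term, using edgeR 4.0.16 (TMM, robust quasi-likelihood test) in R 4.3.3. Tests were two-sided, with Benjamini-Hochberg adjustment over all tested genes and a threshold of 0.05. The replicate-number comparison had treatment as a further term. Log2 CPM used a prior count of 2, and correlations of deviations 100000 permutations within treatments. The genes and lists were chosen with earlier results of these data known. Named relatives were the 4 most abundant of each list and every called gene, and 1 that the rule selects is not reported here. Genes of like pattern were the 3 with the highest r. The fit of chaetocin against F5446 was tested on simulated data. These were drawn without any difference between replicate numbers, so they do not show how the fit behaves where libraries differ by number.

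Deviations of same-numbered libraries of different treatments correlated at 0.19 to 0.722 in all 15 pairs (8685 genes averaging 10 CPM or more). The other 47 pairs ran from -0.688 to 0.688, with a median of -0.282 against 0.398 for pairs of the same number. Every pair within numbers 1 and 2 or within 3 and 4 was positive, and every pair between these sets was negative. Of the 13 libraries, 7 correlated best with one of their own number. F5446 replicate 2 with DMSO replicate 1 was at 0.688, so these values do not show that libraries are paired by number. Deviations of the 2 DMSO libraries mirror each other by construction. The main fit used no pairing and no term for the replicate numbers. Its spread therefore includes differences between the numbers, which were called in 15.8% of all genes. With that term edgeR called 5 genes for chaetocin against F5446 and 108 for romidepsin against chaetocin. The main fit called 0 and 16. Alternatives were DESeq2 1.42.0, limma-voom (limma 3.58.1), other scalings and filters, a non-robust fit, a replicate block or a term for the numbers, the compared groups alone and each library left out. Figures were drawn with matplotlib 3.10.9.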

Additional observations from a re-analysis of the deposited data

How the results depend on the processing

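With 2 DMSO libraries and 3 F5446 libraries, and no strand setting, small differences of these genes were not resolved. For romidepsin against DMSO the log2 fold changes under all settings ran from 0.86 to 1.07 for CAPN6, 1.02 to 1.32 for CKB, 1.04 to 1.62 for TESC and 0.41 to 0.75 for PALLD. All were positive, a sign that the choice of the genes on this comparison favors, so nothing is read from it. The PALLD difference between chaetocin and F5446 was 0.0098 with upper quartile scaling, 0.043 without chaetocin replicate 3 and 0.010 without F5446 replicate 3, opposite in sign to the reported -0.015, and with single libraries left out ran from -0.059 to 0.043. The TESC difference between replicate numbers ran from -0.096 without F5446 replicate 2 to 0.15 without chaetocin replicate 3, and was -0.016 without F5446 replicate 3, -0.057 without romidepsin replicate 2 and -0.040 without romidepsin replicate 3. The r of CKB with TESC was 0.408 and with PALLD 0.227 without chaetocin replicate 3, and with PALLD 0.0721 with replicate numbers also removed. The cause was not tested in any of these cases.

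Counts of genes called over the whole table changed as follows. Without a filter they were 9 for chaetocin against F5446, 5 for romidepsin against DMSO, 9 for chaetocin against DMSO, 72 for romidepsin against chaetocin and 6 for romidepsin against F5446. DESeq2 called 2, 1, 10 and 62 in the first 4 of these and 1 for F5446 against DMSO. For chaetocin against DMSO, limma-voom and the non-robust fit each called 1. Fits of the compared groups alone called 7 for romidepsin against chaetocin and 2 for romidepsin against F5446. With the replicate block the counts were 11 for chaetocin against F5446, 1 for romidepsin against DMSO, 10 for chaetocin against DMSO, 144 for romidepsin against chaetocin and 2 for romidepsin against F5446, and with the term for replicate numbers 5, 1, 7 and 108 for the first 4. The block changed no other call of the tested members or of the lists between treatments. With single libraries left out the counts ran from 0 to 2 for chaetocin against DMSO, from 5 (without romidepsin replicate 2) to 22 (without chaetocin replicate 3) for romidepsin against chaetocin and from 2060 (without DMSO replicate 1) to 2898 (without chaetocin replicate 3) for the replicate numbers.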
